A study of Mus musculus with 2 samples.

Results

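Il7r-positive lymphocytes that carried transcripts of Gata3, Il1rl1, Rora or Trdc were picked out of single-cell RNA sequencing of mouse adrenal glands and described at 6 and 9 weeks of age. A cell was a member when it had at least 1 unique molecular identifier (UMI, the mark of 1 captured transcript) of Il7r and at least 2 UMIs of Gata3, Il1rl1, Rora and Trdc together. Members had no UMI of Cd4, Cd8a, Cd8b1 or Cd79a and at most 1 UMI of the natural killer (NK) genes Ncr1, Klre1, Klrb1c and Eomes together. The complement genes C1qa, C1qb and C1qc together were held to at most 4 UMIs, and the MHC class II gene H2-Ab1 to at most 9. Members were thus chosen by the measured UMIs of these genes. The rule found 73 members among 19135 cells, 32 of 8608 at 6 weeks and 41 of 10527 at 9 weeks. They were then divided into cells with a Trdc UMI, cells with no UMI of Cd3e, Cd3d, Cd3g or Trdc (Cd3-negative), and cells with a Cd3 UMI and no Trdc UMI.

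The glands came from female C57BL/6J mice of the genotype SF1-Cre+;Znrf3Fx/Fx, and both ages carried these alleles. The SF1 promoter drives Cre in the steroid-producing cells of the adrenal cortex, where it removes Znrf3, whose product takes Wnt receptors off the cell surface, so the lymphocytes themselves were not the target of the deletion. The study placed the 6-week glands in a phase of overgrowth and the 9-week glands in a phase of shrinkage, and asked how immune cells differ between them. There was 1 library from 2 pooled adrenals at 6 weeks and 1 library from 3 pooled adrenals at 9 weeks, and glands without the deletion were not analysed here. With 1 library per age no test between the ages was possible, and every interval below is an exact 95% interval for counting error alone.

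The libraries held 97001752 and 99728879 UMIs in 8880 and 10812 barcodes, and cells kept had at least 500 genes and at most 25% of UMIs from mitochondrial genes. The median cell held 12057.5 UMIs at 6 weeks and 7414 at 9 weeks, while the median member held 4496 (2104 to 31310) and 4717 (3088 to 18192). The libraries shared 27 cell barcodes, and 1 member at 9 weeks had a barcode that was also in the 6-week library.

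IL-7 receptor, the product of Il7r, keeps resting T cells and innate lymphoid cells alive. Group 2 innate lymphoid cells (ILC2) have no T cell receptor, depend on the transcription factors GATA3 and RORα, and answer IL-33 from damaged tissue through ST2, the product of Il1rl1. Gamma-delta T cells carry a T cell receptor built with the delta chain constant region Trdc, and divide into cells that make interleukin 17 and cells with cytotoxic and interferon genes. Conventional alpha-beta T cells, which use Trac and Trbc1 or Trbc2, can also express Il7r, Gata3, Il1rl1 and Rora.

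The chosen cells were a mixture, and the name innate-type fitted only part of them. Trdc-positive cells made up 5 of 32 members at 6 weeks (15.6%, interval 5.28 to 32.8) and 6 of 41 at 9 weeks (14.6%, 5.57 to 29.2). Every Trdc-positive member also had a Cd3 UMI. Cd3-negative cells made up 12 members at 6 weeks (37.5%, 21.1 to 56.3) and 18 at 9 weeks (43.9%, 28.5 to 60.3). The rest, 15 cells (46.9%, 29.1 to 65.3) and 17 cells (41.5%, 26.3 to 57.9), were Cd3-positive without Trdc. Of these, 10 of 15 and 13 of 17 had a UMI of Trac, the alpha chain constant region, which the rule did not use, and 14 of 15 and 17 of 17 one of Trac, Trbc1 or Trbc2. These cells therefore held T cell receptor transcripts of the alpha-beta kind with no captured Cd4 or Cd8 transcript, against the name. Trbc1 or Trbc2 alone did not set them apart, as it was found in 5 of 5 and 6 of 6 Trdc-positive and in 9 of 12 and 7 of 18 Cd3-negative members. For each of the 3 subsets the intervals of both ages overlapped.

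The markers given for these cells were spread over different members. Gata3 was found in 20 of 32 and 27 of 41 members, Il1rl1 in 11 and 14, Rora in 22 and 23, and Trdc in 5 and 6. In the mm10 build, with the GENCODE M21 annotation, Il7r lies on chromosome 15 (9505788 to 9530176, minus strand), Gata3 on chromosome 2 (9857078 to 9890034, minus strand) and Il1rl1 on chromosome 1 (40429570 to 40465415, plus strand). Rora lies on chromosome 9 (68653786 to 69388246, plus strand) and Trdc on chromosome 14 (54142851 to 54148868, plus strand). Their levels in the members follow from the rule and are given as a description. Ptprc, which encodes the leukocyte antigen CD45, was found in 25 of 32 and 32 of 41 members.

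**Figure D1:**
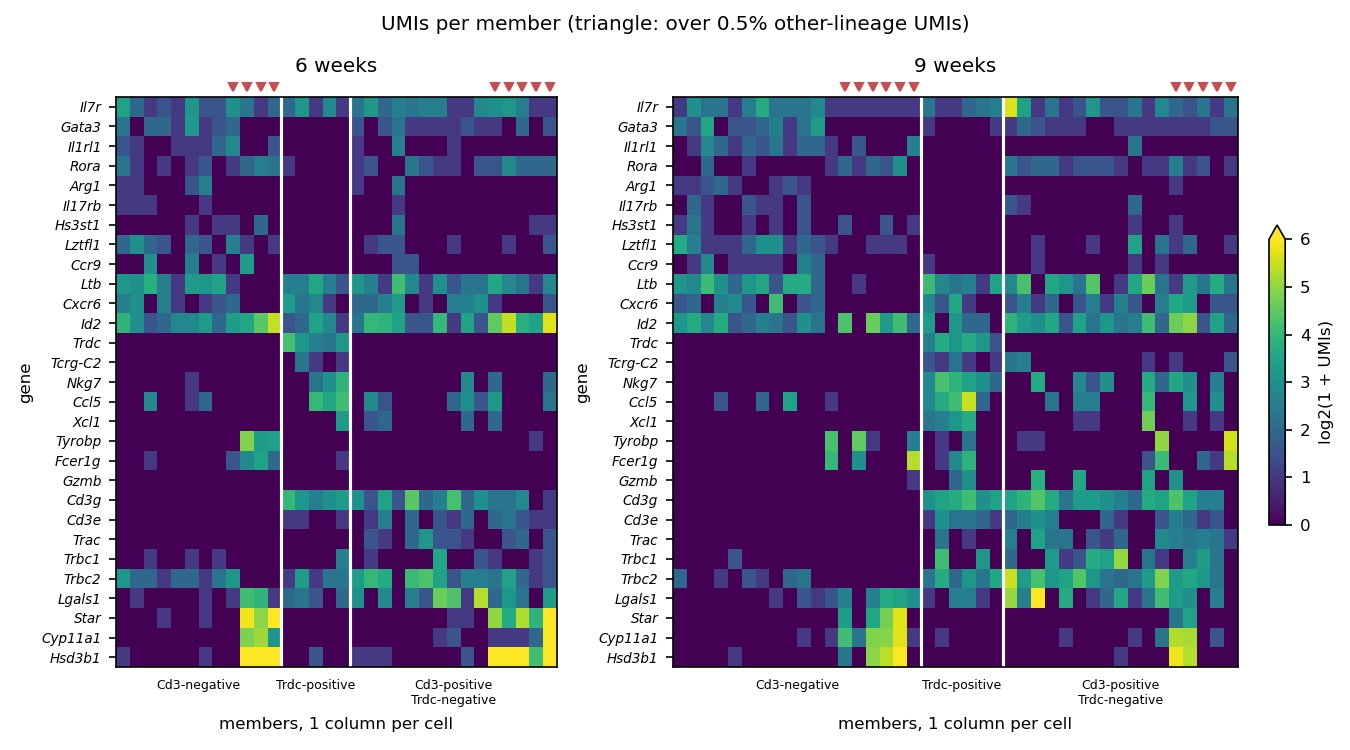
Each column is 1 member and each row 1 gene, coloured by log2(1 + UMIs) in that cell, with 32 members at 6 weeks and 41 at 9 weeks sorted into the 3 subsets; colours stop at 6, and red triangles mark cells with over 0.5% of UMIs from markers of other lineages. Gata3, Il1rl1 and Lztfl1 appear in most Cd3-negative columns without a triangle, Trdc in all Trdc-positive columns and Nkg7 in 3 of 5 and 6 of 6 of them, and the cortical genes Star, Cyp11a1 and Hsd3b1 stand out in columns with a triangle.

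Transcripts of other cell types were present in part of the members and touch every result below. The 9 marker lists, for adrenocortical, chromaffin, endothelial, stromal, macrophage, neutrophil, dendritic, mast and B cells, were summed in each member. In 9 members at 6 weeks and 11 at 9 weeks these markers took over 0.5% of the cell's UMIs. Adrenocortical markers led in 8 and 6 of them, endothelial markers in 1 and 2, mast cell markers in 2 at 9 weeks, at up to 9.30% of a cell's UMIs, and neutrophil markers in 1 at 9 weeks, at 37.9%. All 10 adrenocortical markers were found among the members of each library, and none of the 8 stromal markers. These cells were deep, with medians of 20217 and 12120 UMIs against 4052 and 4524.5 in the other members. Scrublet, a caller of droplets with 2 cells, marked 6 and 4 of them and 0 and 1 of the others. The remaining 23 and 30 cells, 53 in all, are called low-marker members below, a limit chosen after the data had been seen. Ly6c2, Cd74 and Kit are on these marker lists although lymphocytes can express them.

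**Figure D2:**
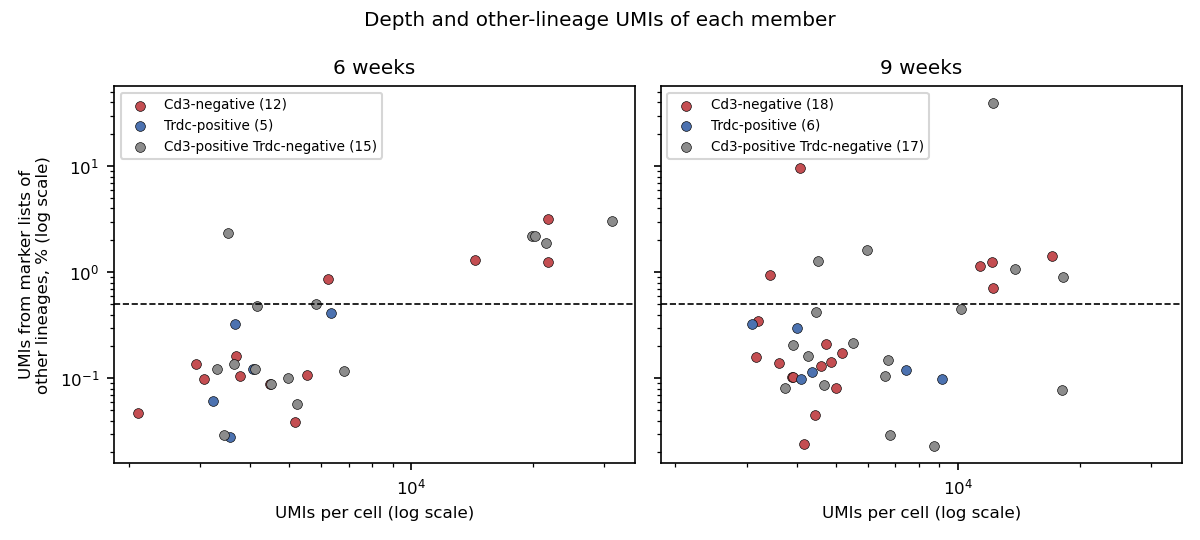
Each point is 1 member, plotted by its UMIs (x axis, log scale) and the percentage of them from marker lists of other lineages (y axis, log scale), with the dashed line at 0.5%. Of 32 members at 6 weeks 9 lie above the line and of 41 at 9 weeks 11, and no Trdc-positive member does.

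Rora was the gene of the rule that cells of the cortex also expressed. Among cells with at least 20 UMIs of Cyp11a1 and Star and no Ptprc UMI, 86.9% had a Rora UMI at 6 weeks and 83.1% at 9 weeks, at median depths of 16119 and 15020 UMIs. Among endothelial cells, taken by at least 3 UMIs of Pecam1 and Cdh5 and no Ptprc UMI, Rora was found in 4.59% and 4.82%, at medians of 2337 and 2809.5 UMIs. The other genes of the rule were near absent from the cortical cells, with Il7r in 0.0779% and 0.0521%, Gata3 in 0.571% and 0.156%, Il1rl1 in 0.312% and 0.208% and Trdc in 0.026% and 0.156%. Of the Cd3-negative members over the 0.5% limit, 2 of 4 and 4 of 6 met the rule through Rora with no UMI of Gata3, Il1rl1 or Trdc, while no low-marker Cd3-negative member did. Scrublet marked both of these cells at 6 weeks and none of the 4 at 9 weeks. The 2 members at 9 weeks over the limit and led by mast cell markers held 2 and 5 UMIs of Il1rl1 and none of Gata3.

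The limits of the rule cut through low counts. Exactly 1 Il7r UMI was found in 9 members at 6 weeks and 15 at 9 weeks, and a sum of exactly 2 over Gata3, Il1rl1, Rora and Trdc in 6 and 11. Just outside, 26 and 35 cells failed only because that sum was 1. A further 11 and 28 cells failed only on Cd4, 2 and 12 only on Cd8a and Cd8b1, and 14 and 9 only on the NK genes. Among Cd3-positive cells without Trdc that passed every criterion other than Cd4 and Cd8, 28 at 6 weeks and 60 at 9 weeks, the cells with neither transcript numbered 15 and 17. The neighbours with a Cd4 UMI were 11 and 28 cells with Cd4 alone and 1 and 3 cells with Cd8 as well. Of all these, 6 and 18 held exactly 1 Cd4 UMI. Those of them without a Cd8 UMI were kept out by the capture of 1 Cd4 transcript.

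The members' share of all cells was close at both ages, while the other lymphocytes took larger shares of all cells at 9 weeks. Members were 0.372% of the cells kept at 6 weeks (0.254 to 0.524) and 0.389% at 9 weeks (0.280 to 0.528), a ratio of 1.05. The range of that ratio, made from the bounds of both ages and so wider than a 95% interval, ran from 0.533 to 2.08. For comparison, NK cells (at least 2 UMIs of the NK genes, no Cd3) went from 1.16% to 2.89% of cells, with a ratio of 2.49 (1.83 to 3.41). CD8 cells (Cd3, Cd8a or Cd8b1, no Cd4) went from 0.802% to 2.35%, a ratio of 2.93 (2.04 to 4.25), and CD4 cells from 0.825% to 2.00%, a ratio of 2.43 (1.68 to 3.55). Cells had been sorted for viability before capture, so each share is of what the sort passed.

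Set against the other lymphocytes, the members were a smaller share at 9 weeks. Of members, NK, CD8 and CD4 cells together, 272 at 6 weeks and 803 at 9 weeks, members were 11.8% (8.19 to 16.2) and 5.11% (3.69 to 6.86), a ratio of 0.434 (0.228 to 0.838). The low-marker members were 8.46% (5.44 to 12.4) and 3.74% (2.53 to 5.29), a ratio of 0.442 (0.204 to 0.973). The subsets were too few for their own comparison, with ratios of 0.508 (0.176 to 1.53) for Cd3-negative, 0.407 (0.0648 to 2.70) for Trdc-positive and 0.384 (0.139 to 1.08) for Cd3-positive Trdc-negative members. Of cells with a Ptprc UMI, 2305 at 6 weeks and 6492 at 9 weeks, members were 1.08% (0.703 to 1.60) and 0.493% (0.337 to 0.695). That ratio was 0.45 (0.211 to 0.989), and for low-marker members 0.533 (0.223 to 1.30), a range that held 1. Among the same cells the ratios were 1.18 (0.86 to 1.63) for NK, 1.36 (0.937 to 1.99) for CD8 and 1.10 (0.757 to 1.63) for CD4 cells. Each of these ranges held 1. Each count rests on detection of transcripts, which depends on depth: with every cell thinned to 2000 UMIs, 15 of 7559 cells (0.198%, 0.111 to 0.327) and 13 of 9580 (0.136%, 0.0723 to 0.232) met the rule, with 1049 and 947 shallower cells left out.

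**Figure D3:**
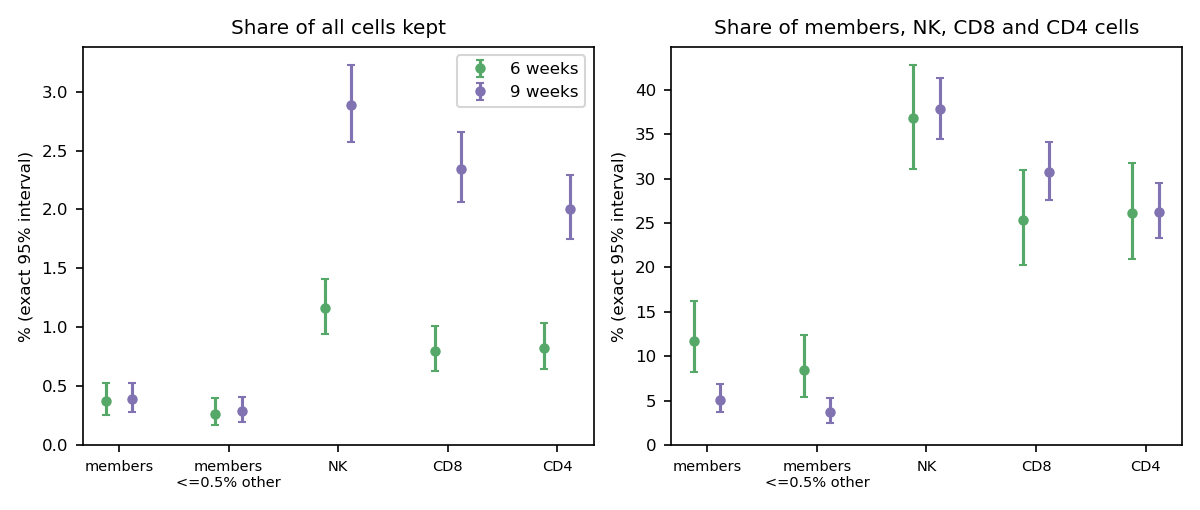
Points give the percentage of all cells kept (left) and of members, NK, CD8 and CD4 cells together (right) at 6 weeks (green) and 9 weeks (purple), and bars their exact 95% intervals. Members stay at 0.372% and 0.389% on the left and go from 11.8% to 5.11% on the right, where low-marker members go from 8.46% to 3.74%.

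The Cd3-negative low-marker members, 8 at 6 weeks and 12 at 9 weeks, carried Gata3 and Il1rl1, while Rora was found in 5 and 3 of them, and together with Gata3 in 4 and 2. Gata3 stood at 748 CPM (UMIs scaled to the group's total) at 6 weeks (474 to 1122) and 849 CPM at 9 weeks (614 to 1144), in 7 of 8 and 10 of 12 cells. Il1rl1 stood at 293 CPM (134 to 555) and 553 CPM (367 to 799), in 6 and 11 cells. Both transcripts were found in the same cell in 5 and 9 cells, and all 20 cells had at least 1 of them. Of the 12 cells at 9 weeks, 1 had mast cell markers as its leading other lineage, with 1 UMI of Il1rl1 and none of Gata3. Il7r was at 943 CPM (631 to 1354) and 1047 CPM (784 to 1369). Ptprc was found in 4 of the 8 and 10 of the 12 cells. No interval separated the ages for any of these genes.

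Genes outside the rule were in the same cells. Of the 22 genes left on the ILC2 list without Gata3, Il1rl1 and Rora, 15 had a UMI in these cells in each library, and they summed to 2764 CPM (2208 to 3417) and 2804 CPM (2362 to 3305). The same 22 genes summed to 1631 CPM (1129.8 to 2279.7) and 840.1 CPM (554 to 1222) in Trdc-positive members. In low-marker Cd3-positive Trdc-negative members they summed to 2068 CPM (1673 to 2528) and 1326 CPM (1091 to 1597). At 6 weeks the intervals of both groups overlapped that of the Cd3-negative cells, and at 9 weeks they lay below it. Arg1, the arginase of ILC2 and macrophages, was at 293 CPM (134 to 555) and 237 CPM (122 to 414). Il17rb, the receptor subunit for IL-25, was at 130.1 CPM (35.4 to 333) and 197 CPM (94.7 to 363). Hs3st1, a heparan sulfate sulfotransferase, was at 65.0 CPM (7.88 to 235) and 197 CPM (94.7 to 363). At least 1 of these 3 transcripts was found in 6 of 8 and 10 of 12 cells, against none of the Trdc-positive members at either age. Among low-marker Cd3-positive Trdc-negative members it was found in 2 of 10 and 3 of 12 cells.

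Cytokine genes of ILC2 were found at 0 to 7 UMIs each. Areg, which encodes the repair factor amphiregulin, had 0 UMIs at both ages, which allows up to 97.5 CPM at 6 weeks and 59.2 CPM at 9 weeks (3 counts). Il13 had 1 UMI at 6 weeks and 0 at 9 weeks, and Il5 0 and 1. Il4 had 1 and 4 UMIs and Csf2, the gene of the myeloid growth factor GM-CSF, 3 and 7. With Calca added, a UMI of any of these 6 genes was found in 5 of 8 and 7 of 12 cells. Klrg1, a marker of mature ILC2, had 0 and 2 UMIs.

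Cxcr6, a gene of the tissue residency list, and Ltb, Bcl2 and Id2, which come from other lists, were present in the Cd3-negative low-marker members. Of the 12 tissue residency genes only 3, Itgb7, Ccr9 and Cxcr6, had at least 20 UMIs in these cells over both libraries. Ltb, a lymphotoxin subunit, was at 1983 CPM (1517 to 2548) and 1738 CPM (1394 to 2141), and Cxcr6, the receptor for CXCL16, at 683 CPM (423 to 1044) and 789.8 CPM (564 to 1076). Bcl2, the survival protein, was at 488 CPM (273 to 804) and 434 CPM (272 to 658). Id2, the inhibitor of E proteins that innate lymphoid cells need, was at 1626 CPM (1207 to 2143) and 1283 CPM (991 to 1636). Of the 8 circulation genes, S1pr1, Ccr7 and Tcf7 had no UMI at either age, and the list summed to 293 CPM (134 to 555) and 237 CPM (122 to 414), from 5 of 8 and 7 of 12 cells. Ccr2, the receptor for CCL2, was at 163 CPM (52.8 to 379) and 474 CPM (304 to 705), with overlapping intervals.

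No Trac UMI was found in any of the 30 Cd3-negative members, of 94994 UMIs at 6 weeks and 110930 at 9 weeks, although the rule did not use Trac. Trbc2 was present all the same, at 845 CPM in the low-marker cells at 6 weeks (552 to 1239) in 8 of 8 cells, and at 276 CPM at 9 weeks (151 to 464) in 6 of 12. NK cells, which have no T cell receptor, also held Trbc2, at 336 CPM (283 to 397) and 229 CPM (205 to 255), while Trac stood at 11.9 CPM (3.87 to 27.8) and 12.6 CPM (7.47 to 19.9) there. Tcrg-C4, a constant region of the gamma chain, was at 325 CPM (156 to 598) and 316 CPM (181 to 513) in the Cd3-negative low-marker cells. Il22 and Ccr6, genes of group 3 innate lymphoid cells, had no UMI at either age, which allows up to 97.5 and 59.2 CPM (3 counts). Ltb, given above, is on the list of 12 genes of group 3 innate lymphoid cells and lymphoid tissue inducer cells. A UMI of that list was found in 8 of 8 and 11 of 12 Cd3-negative low-marker cells.

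Lztfl1, which encodes a protein of ciliary transport, and the chemokine receptor gene Ccr9 led the genes by which Cd3-negative low-marker members stood above both other subsets. Lztfl1 was at 650.3 CPM (397 to 1004) in the 6-week and 869 CPM (631 to 1166) in the 9-week library, in 6 of 8 and 12 of 12 cells. In the low-marker Cd3-positive Trdc-negative members it was at 131 CPM (47.9 to 284) and 191 CPM (109 to 310.4), and in Trdc-positive members it had no UMI. NK, CD8 and CD4 cells ranged from 14.7 to 51.8 CPM over both ages. Ccr9, the receptor for CCL25, was at 423 CPM (225 to 723) and 375 CPM (226 to 586), in 3 of 8 and 8 of 12 cells. It was at 87.1 and 35.8 CPM in the Cd3-positive Trdc-negative cells and at 0 to 35.5 CPM in NK, CD8 and CD4 cells.

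These genes are neighbours on chromosome 9 of mm10. Lztfl1 (123694416 to 123717697, minus strand) lies inside the gene model of Ccr9 (123678439 to 123784330, plus strand), and Cxcr6 (123806475 to 123811760, plus strand) follows inside Fyco1 (123789500 to 123851899, minus strand). The other genes of the stretch did not share the pattern: Fyco1 had 2 and 1 UMIs in the Cd3-negative low-marker members, Sacm1l 1 and 2, Limd1 2 and 2, and Slc6a20a and Xcr1 none. Cxcr6 was found in all 3 subsets, at 959.6 and 622 CPM in Trdc-positive members. No source used here says whether the counting used strand, so the UMIs of Lztfl1 and Ccr9 may not be fully apart.

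Trdc-positive members, 5 at 6 weeks with 20841 UMIs and 6 at 9 weeks with 32138 UMIs, carried delta and gamma chain transcripts and, in most cells, cytotoxic lymphocyte genes. Trdc ranged from 4 to 18 UMIs in the cells at 6 weeks and from 2 to 12 at 9 weeks. Tcrg-C1, Tcrg-C2 or Tcrg-C4, constant regions of the gamma chain, was found in 5 of 5 and 5 of 6 cells. Trac was found in 2 of the 6 cells at 9 weeks, with 1 and 4 UMIs. Ccl5, the chemokine RANTES, was at 2063 CPM (1493 to 2779) and 2551 CPM (2029 to 3167). Nkg7, a protein of cytotoxic granules, was at 1199.6 CPM (776 to 1771) and 1805 CPM (1370.4 to 2333). Xcl1, the chemokine lymphotactin, was at 432 CPM (197 to 819.8) and 902 CPM (604 to 1296), all from 1 cell at 6 weeks and from 4 at 9 weeks.

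The granule enzymes of NK cells were absent or low. Gzma, granzyme A, had 0 UMIs at both ages, which allows up to 144 and 93.3 CPM (3 counts), against 6614 and 14133 CPM in NK cells. Gzmb, granzyme B, had 0 UMIs at 6 weeks and 10 UMIs (311 CPM, 149 to 572) in 2 of 6 cells at 9 weeks, and Prf1, perforin, 0 and 4. Fcer1g, a signalling chain of Fc and NK receptors, had 1 UMI at 6 weeks and 21 at 9 weeks, in 3 cells. Il17a and Il17f had no UMI at either age.

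At 6 weeks the Trdc-positive members were of 2 kinds, a division made after their values had been seen. A pair of cells had no UMI of Nkg7, Ccl5, Xcl1, Klrd1 or Ly6c2 and 1 or 2 UMIs each of Sox13 and Maf, transcription factor genes of gamma-delta cells that make interleukin 17. The deeper cell of this pair also held 7 UMIs of Cd163l1, 4 of Blk, 8 of Tcrg-C1 and 18 of Trdc. The other 3 cells at 6 weeks had 4 to 14 UMIs of Nkg7 and 11 to 17 of Ccl5, and none of Sox13, Maf, Cd163l1 or Blk. At 9 weeks all 6 cells had Nkg7, with 3 to 18 UMIs, 5 had Ccl5, with 3 to 44, 1 had a UMI of Maf, and none had a UMI of Sox13, Cd163l1 or Blk. With 5 and 6 cells, 0 of 6 allows a share of up to 45.9%, so absence at 9 weeks could not be told from sparse sampling.

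Between the ages, Trdc-positive members were compared over the 325 genes with at least 20 UMIs in both libraries together. At 9 weeks 23 genes (7.08%) were at least 2-fold higher and 7 (2.15%) at least 2-fold lower, on levels with 20 CPM added. Intervals were apart for 5 of the higher and 3 of the lower genes. Ms4a4b, a T cell surface protein, was at 959.6 CPM (586 to 1482) and 2116 CPM (1643 to 2682), found in 4 of 5 and 6 of 6 cells. Ly6c2, a marker of memory T cells and monocytes, was at 1679 CPM (1169.8 to 2336) and 218 CPM (87.6 to 449), from 3 cells and 1 cell. S100a4, a calcium-binding protein, was at 912 CPM (549 to 1424) and 187 CPM (68.5 to 406), from 2 cells at each age. Actg1, gamma actin, was at 816 CPM (475 to 1306) and 2116 CPM (1643 to 2682). Each of these values rests on so few cells that 1 cell can set it.

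Most Cd3-positive members without Trdc held T cell receptor genes, which the rule left free. In the 10 and 12 low-marker cells, Trac was at 414 CPM (249 to 646) in the 6-week and 418 CPM (291 to 581) in the 9-week library, and Trbc2 at 2025 CPM (1634 to 2480.5) and 1971 CPM (1682 to 2296). CD4 cells held Trac at 450.0 CPM (397 to 508) and 723 CPM (676 to 773) and CD8 cells at 436 CPM (372 to 508) and 615 CPM (575 to 657), so that at 9 weeks the members lay below CD4 cells with intervals apart. Trbc2 was at 1282 and 1869.6 CPM in CD4 cells and at 1429 and 2124 CPM in CD8 cells, and the members lay above both at 6 weeks with intervals apart. Without the Cd3 genes, which made the split, the 14 other genes on the alpha-beta T cell list summed to 4354 CPM (3772 to 5001) and 4933 CPM (4469 to 5433), against 1431 CPM (1039 to 1921) and 789.8 CPM (564 to 1076) in Cd3-negative low-marker members. Foxp3, the factor of regulatory T cells, had no UMI, and Zbtb16, the factor of invariant T cells, was found in 1 cell at each age.

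Some of these cells lacked Trac, which was found in 7 of 10 and 8 of 12 low-marker cells. Gata3 was found in 9 of 10 and 10 of 12 low-marker cells, at 327 CPM (183 to 539) and 155 CPM (82.7 to 266), and Il1rl1 in 3 and 1 cells. Il1rl1 and Arg1 at 6 weeks came mostly from 1 cell, with 5 of 7 and 4 of 5 UMIs, which held 2 UMIs of Cd3g and none of Trac, Trbc1 or Trbc2. At 9 weeks all 4 Il1rl1 UMIs came from 1 cell, which also held 10 UMIs of Lztfl1 and 3 of Il17rb, and none of Trac. Il7r was at 914 CPM (659 to 1236) and 1087 CPM (875 to 1335), of which 50 of 91 UMIs at 9 weeks came from 1 cell.

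Compared over all genes, the low-marker Cd3-positive Trdc-negative members stood at least 2-fold above the low-marker Cd3-negative members in both libraries for 87 of 1550 genes (5.61%) and below for 28 (1.81%). Lgals1, galectin 1, was at 2242 CPM (1830.4 to 2719.7) and 2461 CPM (2136 to 2821), against 65.0 CPM (7.88 to 235) and 118 CPM (43.5 to 258) in the Cd3-negative cells. It was found in 8 of 10 and 10 of 12 of the Cd3-positive cells, but 120 of their 206 UMIs at 9 weeks came from 1 cell. Ms4a4b was at 1306 CPM (997 to 1681) and 1063 CPM (854 to 1308), against 32.5 CPM and no UMI. Tcf7, a factor of naive and memory T cells, Anxa2, a membrane-binding annexin, and Ifi27l2a, an interferon response gene, had no UMI in the Cd3-negative cells. These 3 genes reached 261, 435 and 501 CPM at 6 weeks and 215, 334 and 489.8 CPM at 9 weeks in the Cd3-positive cells. Below were Ccr9, Lztfl1, Zfp36l1, an RNA-binding protein, at 87.1 against 553 CPM and 167 against 573 CPM, and Nedd4, a ubiquitin ligase, at 43.5 against 358 CPM and 47.8 against 296 CPM. The Cd3 genes and Trac lead this comparison partly because the split used Cd3.

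Trdc-positive members were set against Cd3-negative members in the same way. Against all Cd3-negative members, 80 of 2204 genes (3.63%) were higher and 352 (16.0%) lower in both libraries. The lower genes were led by Ecrg4, Star, Ly6d and Hsd3b1, and those cells held the cortical markers described above. Star, which brings cholesterol into mitochondria, was at 1969 CPM (1696 to 2272) and 874 CPM (709 to 1067) in Cd3-negative members, and had no UMI in Trdc-positive members. Against the low-marker Cd3-negative members, 36 of 913 genes (3.94%) were higher and 41 (4.49%) lower.

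Among the genes higher in Trdc-positive than in low-marker Cd3-negative members, besides Trdc and Cd3, was Nkg7, at 32.5 CPM at 6 weeks and with no UMI at 9 weeks in the Cd3-negative cells. Klrd1, the receptor CD94 of NK cells, was at 336 CPM (135 to 692) and 747 CPM (478 to 1111) in Trdc-positive cells and had no UMI in the Cd3-negative ones. The same held for Xcl1 and Ly6c2. Epsti1, an interferon response gene, was at 624 CPM (332 to 1067) and 685 CPM (429 to 1036), against no UMI and 19.7 CPM. S100a6, a calcium-binding protein, was at 1631 CPM (1129.8 to 2279.7) and 965 CPM (655 to 1369), against 390.2 CPM (202 to 682) and 39.5 CPM (4.78 to 143). Lower in Trdc-positive cells, besides Gata3, Lztfl1 and Ccr9, was Ly6a (Sca-1), at 239.9 CPM (77.9 to 559.9) and 187 CPM (68.5 to 406) against 1040.4 CPM (712 to 1469) and 1007 CPM (749.8 to 1324). Gata3 is a gene of the rule, which Cd3-negative members, having no Trdc UMI, could meet only through Gata3, Il1rl1 or Rora.

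**Figure D4:**
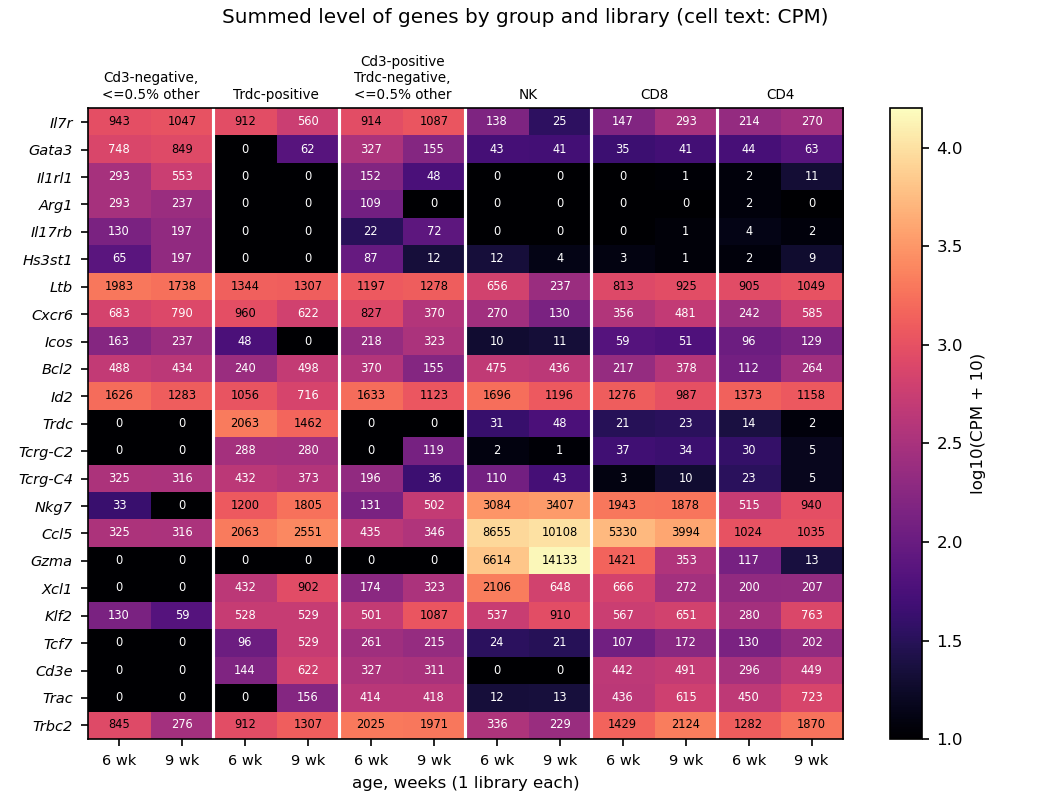
Rows are genes and columns are groups of cells at 6 and 9 weeks; colour is log10(CPM + 10) of the summed UMIs and the text in each field the CPM. Gata3, Il1rl1, Arg1 and Il17rb are brightest in the Cd3-negative columns, where Gata3 is at 748 and 849 CPM, and Trdc and Tcrg-C2 in the Trdc-positive columns, while Gzma is bright in NK cells, at 6614 and 14133 CPM, and at 0 in all 3 subsets. Il7r, Gata3, Il1rl1 and Trdc are genes of the rule, so their levels in the members follow in part from it.

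Beside NK, CD8 and CD4 cells, the members differed in level for some genes the rule did not use. Arg1 had no UMI in the NK and CD8 cells of either age and 1 UMI in the CD4 cells, and Il17rb stayed at or under 3.50 CPM in all of them, against 130.1 and 197 CPM in the Cd3-negative low-marker members. Ltb was higher in these members, at 1983 and 1738 CPM, than in NK (656 and 237 CPM), CD8 (813 and 925 CPM) and CD4 cells (905 and 1049 CPM), with intervals apart at both ages. Ltb was also found in every Trdc-positive member, and the NK, CD8 and CD4 cells were not chosen by Il7r. Cxcr6 in NK cells was at 269.5 CPM (222 to 324) and 130.3 CPM (112 to 150.4). In CD8 cells it was at 356 CPM (298 to 422) and 481 CPM (446 to 518). CD4 cells held it at 242 CPM (203 to 285) and 585 CPM (542 to 630). At 9 weeks the interval of CD4 cells overlapped that of the Cd3-negative low-marker members (564 to 1076). Trdc-positive members lay below NK cells in Ccl5 (8655 and 10108 CPM) and Nkg7 (3084 and 3407 CPM), with intervals apart. Trdc itself was found in 12% and 19.7% of the NK cells, which had no Cd3 UMI, at 31.0 and 48.3 CPM.

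Between 6 and 9 weeks, the members as a whole differed most in genes of other lineages. Of 4275 genes with at least 20 UMIs, 145 (3.39%) were at least 2-fold higher at 9 weeks and 224 (5.24%) at least 2-fold lower. The higher genes were led by S100a9 and S100a8, alarmin genes of neutrophils, at 3.87 and 0 CPM at 6 weeks and 6520.2 and 5429 CPM at 9 weeks, but 1810 of the 1835 S100a9 UMIs and 1505 of the 1528 S100a8 UMIs came from 1 cell. Cpa3, a mast cell protease, was at 19.4 and 270.0 CPM, with 70 of 76 UMIs at 9 weeks in 1 cell. The lower genes were led by genes of cortical cells: Akr1d1 was at 1193 and 0 CPM, Adh1 at 1417 and 28.4 CPM, and Cyp11b1, which makes corticosterone, at 1254 and 39.1 CPM. Adrenocortical markers took 1.27% of all member UMIs at 6 weeks and 0.322% at 9 weeks, and neutrophil markers 0.0039% and 1.66%. Their part in the other differences between ages of all members was not tested.

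The 53 low-marker members were compared between ages in the same way. Of 1944 genes, 93 (4.78%) were at least 2-fold higher at 9 weeks and 32 (1.65%) lower. Intervals were apart for 22 of the higher and 12 of the lower genes. Tyrobp, the adaptor DAP12 of NK and myeloid receptors, had 0 UMIs at 6 weeks and 336 CPM (254 to 437) at 9 weeks, with 31 of 56 UMIs in 1 cell. At 9 weeks 2 low-marker members had mast cell markers as their leading other lineage, at 0.219% and 0.256% of UMIs, and they held 49 of the 56 Tyrobp UMIs and 31 of the 54 Fcer1g UMIs. Without the low-marker members led by mast cell markers, 1 at 6 weeks and these 2, Tyrobp was at 45.7 CPM (18.4 to 94.2) and Fcer1g at 150.2 CPM (95.2 to 225) at 9 weeks. Gzmb had 0 UMIs at 6 weeks and 264 CPM (192 to 355) at 9 weeks, from 5 cells, 2 Trdc-positive and 3 Cd3-positive Trdc-negative, each of which also had Nkg7. Fcer1g was at 20.5 CPM (2.48 to 74.1) and 324 CPM (244 to 423), from 2 and 6 cells. Of the 6 cells with Tyrobp 1 was Cd3-negative, 2 were Trdc-positive and 3 were Cd3-positive without Trdc, and 4 of the 6 also had Fcer1g.

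Other genes higher at 9 weeks were spread over more cells. Hspa4, a heat shock protein, had 4 UMIs from 3 cells at 6 weeks and 39 UMIs from 18 cells at 9 weeks (234 CPM, 167 to 320.2). Mcm4, a DNA replication helicase subunit, was at 10.3 CPM (0.260 to 57.1) and 138 CPM (87.6 to 207), from 1 and 12 cells. Of its 23 UMIs at 9 weeks, 10 came from 1 cell. Rrp1, of ribosome assembly, was at 30.8 CPM (6.34 to 89.9) and 180.2 CPM (122 to 257), from 3 and 16 cells. Nhp2, a small nucleolar RNA-binding protein, was at 51.3 CPM (16.6 to 119.6) and 180.2 CPM (122 to 257). Dusp2, a phosphatase induced on activation, was at 30.8 CPM (6.34 to 89.9) and 156 CPM (102 to 229). Rgcc, a regulator of the cell cycle, and Lgals3, galectin 3, had 21 of 34 and 29 of 54 UMIs at 9 weeks in 1 cell.

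Genes lower at 9 weeks in the low-marker members included receptors. Il2rb, the shared receptor chain for IL-2 and IL-15, was at 236 CPM (149 to 354) and 72.1 CPM (37.2 to 126), a log2 ratio of -1.47 with 20 CPM added, and Tnfrsf18, the costimulatory receptor GITR, at 349 CPM (241 to 487) and 138 CPM (87.6 to 207). Ltb4r1, the leukotriene B4 receptor, was at 308 CPM (208 to 439) and 138 CPM (87.6 to 207), and Maf, a transcription factor, at 256 CPM (166 to 378) and 102 CPM (59.5 to 163). Krit1, a junction protein, was at 256 CPM (166 to 378) and 84.1 CPM (46.0 to 141), and Snrpf, of the splicing machinery, at 287 CPM (191 to 415) and 114 CPM (68.7 to 178). Of the Cd74 UMIs at 6 weeks, 18 of 25 came from 1 cell, and of the Ly6c2 UMIs 24 of 48.

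**Figure D5:**
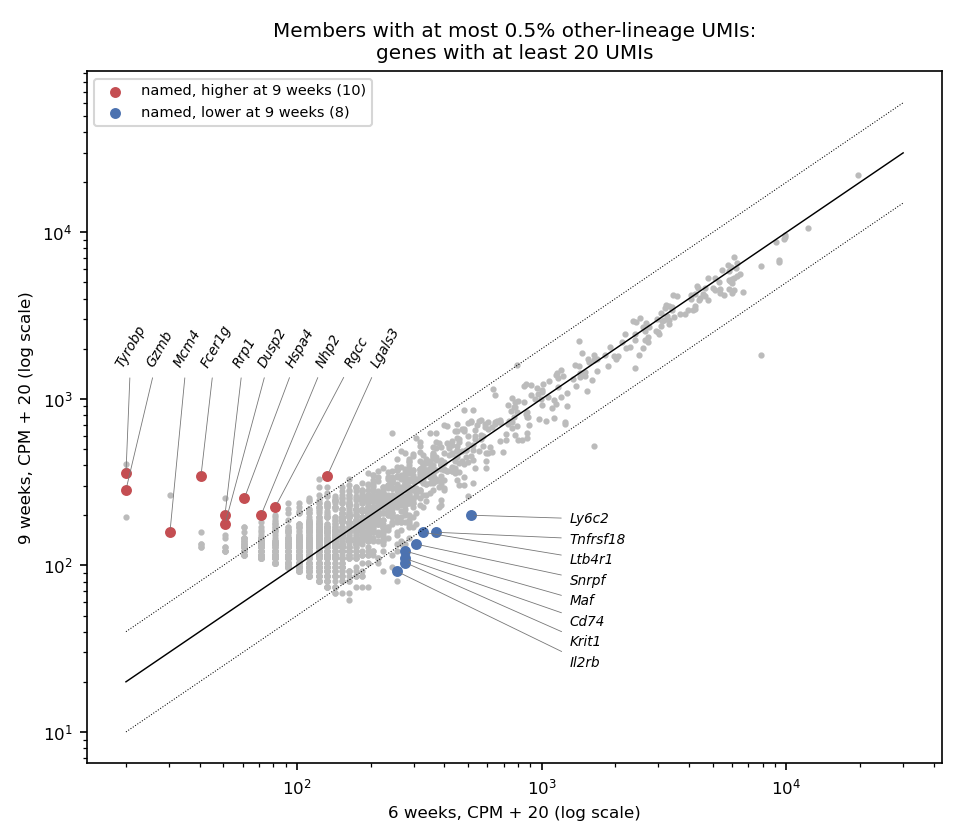
Each point is 1 of 1944 genes with at least 20 UMIs in the low-marker members, by its level at 6 weeks (x axis) and 9 weeks (y axis), both CPM + 20 on log scales; dotted lines mark 2-fold. The 10 genes named as higher, lie above the upper line, with Tyrobp and Gzmb at the left edge with 0 UMIs at 6 weeks, and the 8 named as lower, such as Il2rb and Krit1, lie below the lower line.

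Within the Cd3-negative low-marker members, 36 of 509 genes (7.07%) were at least 2-fold higher at 9 weeks and 12 (2.36%) lower. Intervals were apart for 6 of the higher and 7 of the lower genes. 3 of the higher genes passed the rule for naming. Hsp90b1, a chaperone of the endoplasmic reticulum, was at 358 CPM (179 to 639.9) and 987 CPM (733 to 1302), in 7 of 8 and 11 of 12 cells. Pdia3, a disulfide isomerase of the same compartment, was at 130.1 CPM (35.4 to 333) and 553 CPM (367 to 799), in 3 and 10 cells, and Clta, a clathrin light chain, at 97.5 CPM (20.1 to 285) and 474 CPM (304 to 705), in 3 and 11. Lower was Trbc2, with the values given above. Sptssa, of sphingolipid synthesis, was at 1008 CPM (685 to 1431) and 395 CPM (241 to 609.9), and S100a4 at 845 CPM (552 to 1239) and 336 CPM (196 to 537).

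Gene lists held members on both sides in the low-marker members. Past a 1.5-fold ratio, 300 of 1944 genes (15.4%) were higher at 9 weeks and 147 (7.56%) lower, with a median log2 ratio of 0.10 over all genes. Intervals were apart for only 34 of the higher and 17 of the lower genes. Of the list genes named in this paragraph, only Gzmb, Nkg7, Trbc1, Maf, Ltb4r1, Il2rb and H2-Q7 had intervals apart. Of 10 ILC2 genes with at least 20 UMIs, 1, Il17rb, was higher and 2, Arg1 and Il2ra, were lower, with a median of -0.48, and of 12 genes on the type 17 gamma-delta list, 1, Tcrg-C2, was higher and 3, Maf, Ltb4r1 and Trdc, were lower, with a median of -0.23. Of 7 ILC1 and NK genes, 4 were higher, Gzmb, Klrd1, Xcl1 and Nkg7, and 2 lower, Il2rb and Txk, with a median of 0.83. Of 12 alpha-beta T cell genes 1, Trbc1, was higher and none lower, with a median of 0.02. Of 17 interferon response genes 1, Isg20, was higher and 1, Trim30a, lower, with a median of -0.06. Of 14 MHC class I genes none was higher and 4, Tap1, H2-Q7, H2-Q6 and Tapbp, were lower, with a median of -0.17. Of 9 cytokine receptor genes 1 was higher and 3, Il2rb, Ifngr1 and Il2ra, were lower, with a median of 0.07, and of 5 tissue residency genes none was higher and 1, Rbpj, was lower, with a median of -0.30. The ILC2 and type 17 lists hold genes of the rule. In the Cd3-negative low-marker members alone, 5 ILC2 genes had at least 20 UMIs. Their median was 0.18, with Il1rl1 higher and Lmo4 lower past 1.5-fold, both with overlapping intervals. In all members together, where the median over all genes was 0.00, the medians of the first 6 of these lists were 0.27, 0.07, 1.21, 0.51, 0.39 and 0.37, and that of the tissue residency list 0.03, so that the ILC2, type 17 gamma-delta, interferon, MHC class I and tissue residency lists differed in sign between the full set and the low-marker set.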

How the data were processed

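Single-cell RNA of adrenal glands was captured with 10x 3' v3.1 chemistry, and the authors deposited UMI counts per gene and barcode for each library. Cell Ranger 6.0.1, Seurat and the mm10 build are named in the submitters' processing notes, and no source used here gives the annotation release. The deposited counts were read with Python 3.11.15, numpy 2.4.6, scipy 1.17.1 and pandas 2.3.3. Cells with at least 500 genes and at most 25% mitochondrial UMIs were kept. Scrublet (scanpy 1.11.5), run on each library alone, marked 5.52% and 5.57% of cells as doublets, and these were not removed, since the rule for members names no doublet filter.

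UMIs were summed over the cells of a group in each library and given as CPM with exact Poisson intervals, and shares with exact Clopper-Pearson intervals. Both cover counting error only. With 1 library per age no test was run. Ratios used levels with 20 CPM added, over genes with at least 20 UMIs in both libraries together, and 2-fold was the limit for counts of genes (1.5-fold within lists). The calculations were tested on simulated data.

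The named genes were the 10 largest ratios in each direction (5 for subsets between ages) past 2-fold, with at least 100 CPM, UMIs in 10% of cells of the higher group and intervals apart, without mitochondrial, ribosomal, haemoglobin, immunoglobulin and receptor-segment genes, clone-named models and Xist. Some genes that met this rule are not reported here. Some subset genes were named for the lists they belong to. The chromosome 9 neighbours, the counts of genes by cell the 0.5% limit on other-lineage markers and the values without members led by mast cell markers were chosen after the values had been seen. Members and lists were chosen with earlier results of these data known. Alternatives changed the cell filters, the rule, the doublet treatment, the pseudocount, the count minimum and the scaling.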

Additional observations from a re-analysis of the deposited data

How the results depend on the processing

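With 32 and 41 members, and subsets of 5 to 18 cells, 1 cell could set a level, and values below 3 UMIs in a group could not be told from 0. No paired analysis was possible because there was 1 library per age. The ratio of the members' share of all cells, 1.05, had no stable direction: it was 0.984 at 10% mitochondrial UMIs, 0.924 with at least 2 Il7r UMIs, 0.943 with a sum of at least 3, 0.934 without Rora and 0.684 thinned, each with an interval that held 1. The ratio among lymphocytes, 0.434, lay between 0.268 and 0.486, with an interval reaching past 1 (0.222 to 1.09) under the Ptprc setting. The Cd3-negative share, higher at 9 weeks, was lower with at least 2 Il7r UMIs (39.1% and 34.6%). Of these and the gene counts, 102 of 133 values stayed within their limits and 31 moved, and of the list medians 127 of 176 stayed and 49 moved. A reversal was looked for only in list medians past 1.5-fold. Only the ILC1 and NK list, with a median of 1.21, could show one, and none was found. Other list medians crossed 0: the ILC2 median over all members was 0.27, -0.23 with Scrublet calls removed and 0.57 with at least 2 Il7r UMIs. In all members, genes lower at 9 weeks came to 144 with Scrublet calls removed, 119 with a Ptprc UMI and at most 2% other-lineage UMIs required, 32 at the 0.5% limit, 339 and 92 with minimums of 10 and 50 UMIs, and 144 with each cell weighted alike. Genes higher came to 91, 93, 231 and 62 under the Ptprc, 0.5% and 2 minimum settings, and 247 with 5 CPM added. Lists with a median above 0, 12 of 13, came to 5 of 11 at the 0.5% limit and 4 of 6 with a minimum of 50. Trdc-positive against Cd3-negative members, the genes higher were 37 with at least 2 Il7r UMIs, 46 with the Ptprc limit, 36 at 0.5%, 41 without Rora in the rule, and 143 and 34 with minimums of 10 and 50. The genes lower were 205 with Scrublet calls removed, then 97, 66, 41, 90, 764 and 110 in the same order. At the 0.5% limit and without members led by mast cell markers, the genes between ages were 80 higher and 29 lower, the lists above 0 were 5, and the genes of Trdc-positive cells 37 higher and 40 lower. The cause of each move was not tested.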
